A study of Mus musculus with 25 samples.

Results

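The genes of cholesterol synthesis and of lipogenesis were followed in the liver of mice whose hepatocytes lack Mcl-1, an anti-apoptotic member of the BCL-2 family. The list held 35 genes, chosen by what their products do. It has a sterol arm, with the enzymes from hydroxymethylglutaryl-CoA synthase to the last steps of cholesterol synthesis and their regulators, and a fatty acid arm, with the enzymes and regulators of fatty acid and triglyceride synthesis. A probe was matched for 34 of the 35 genes, 19 in the sterol arm and 15 in the fatty acid arm, among 33815 genes and unnamed probes on the array. Idi1, isopentenyl-diphosphate isomerase, was listed in the sterol arm and had no matched probe.

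RNA from untreated mice was hybridised as total liver homogenate, 1 array per sample, on 25 one-colour arrays. At 2 months of age there were 2 wild-type mice, 3 hemizygous mice and 3 knockout mice, described as littermates. Older groups were wild-type mice of 12 months (3) and knockout mice of 12 months (4) and 8 months (3), with no wild-type mice of 8 months. From the 7 older knockout mice tumor tissue and liver outside the tumor were both hybridised. The labels do not give the promoter that drives the deletion, the deleted part of the gene, the sex, the diet or the time of day. A homogenate holds every cell of the liver, so that fewer cells of a type and less RNA per cell cannot be told apart.

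Cholesterol is built from acetyl-CoA through mevalonate, farnesyl diphosphate, squalene and lanosterol. The transcription factor SREBP2, made from Srebf2, raises the transcription of most enzymes of this route when membranes are low in sterol, and INSIG1 holds it back in the endoplasmic reticulum. Fatty acids are built from citrate through ACLY, the acetyl-CoA carboxylases and FASN, are lengthened by ELOVL enzymes, desaturated by SCD enzymes and esterified to glycerol by GPAM and DGAT2. SREBP1c, made from Srebf1, and ChREBP, made from Mlxipl, drive this programme in the fed liver.

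Promoter sequences are given for the members that held the sterol regulatory element and for the 4 sterol members with the smallest p in any comparison among those with an entry. Of the 20 listed sterol genes 16 had an entry among the RefSeq promoters (mouse GRCm38.p6), with 19 start sites, and of the 15 fatty acid genes 12 had an entry, with 17 start sites. 4 motifs, none of which contains another, were searched on both strands of the 250 bases before each start: TCACNCCAC, a sterol regulatory element; CACGTG, an E-box; CCAAT, the NF-Y motif, which reads ATTGG on the other strand; and GGGCGG, an Sp1 motif. TCACNCCAC was found before 1 of 19 sterol starts and 1 of 17 fatty acid starts, against 1.05% of all 32851 promoters. These belonged to Hmgcs1, the synthase that makes hydroxymethylglutaryl-CoA, and to the second start of Mlxipl. The element is in capitals below, and in Hmgcs1 an ATTGG upstream of it also.

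Hmgcs1, chr13:119690169-119690268, plus strand: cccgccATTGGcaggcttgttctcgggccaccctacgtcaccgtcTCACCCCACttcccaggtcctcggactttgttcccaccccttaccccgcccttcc
Mlxipl, chr5:135106710-135106809, plus strand: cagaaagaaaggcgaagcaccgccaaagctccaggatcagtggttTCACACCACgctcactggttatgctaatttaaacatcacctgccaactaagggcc

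CCAAT and GGGCGG, on either strand, were the motifs that most sterol promoters shared. CCAAT lay before 16 of 19 sterol starts (84.2%), at least 1 start of each of the 16 genes. It lay before 33.8% of all promoters and 35.1% of those of genes named on the array. Of the fatty acid starts 58.8% held it. GGGCGG lay before 84.2% of sterol starts and 41.2% of fatty acid starts, against 32.7% of all promoters and 47.4% for genes named on the array. The E-box lay before 21.1% and 11.8%, against 6.02% of all promoters and 7.28% for genes named on the array. Windows of 100 bases are shown for Hsd17b7 and Tm7sf2, enzymes of the late, post-squalene steps, for Mvd, which makes isopentenyl diphosphate, and for Srebf2. CCAAT was put in capitals, on whichever strand it was read, after the motif counts had been seen. A match describes the letters and does not show that a factor binds there.

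Hsd17b7, chr1:169969206-169969305, minus strand: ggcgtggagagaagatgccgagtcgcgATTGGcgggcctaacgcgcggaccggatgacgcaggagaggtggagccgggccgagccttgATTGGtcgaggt
Tm7sf2, chr19:6067851-6067950, minus strand: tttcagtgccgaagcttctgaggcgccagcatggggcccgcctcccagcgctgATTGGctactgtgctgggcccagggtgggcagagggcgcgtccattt
Mvd, chr8:122443423-122443522, minus strand: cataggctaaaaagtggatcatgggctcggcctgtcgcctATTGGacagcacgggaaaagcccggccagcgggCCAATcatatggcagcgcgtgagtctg
Srebf2, chr15:82147087-82147186, plus strand: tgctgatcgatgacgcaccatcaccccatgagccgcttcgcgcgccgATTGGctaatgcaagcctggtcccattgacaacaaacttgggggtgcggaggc

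A level below is log2 of the processed signal minus the 75th percentile of its array, so that 0 is that percentile, and levels of different probes are not set against each other. Mcl1 itself was at 4.02 and 4.50 in wild-type liver at 2 months, at 3.20 to 3.58 in hemizygous liver and at 1.53 to 2.09 in knockout liver of that age, in the order of the genotypes. At 12 months it was at 3.88 to 4.50 in wild-type and 2.39 to 2.82 in non-tumor knockout liver. Hepatocyte marker genes had mean levels of 6.94 to 8.05 over all arrays, and 9 or 10 of the 10 measured were well above background on each. Between 60.2% and 84.8% of probes per array were well above background, which limits the precision of dim genes. The arrays lay on 8 slides, none of which held wild-type and knockout liver of 2 months together, and 3 arrays, 2 of them wild type at 12 months, were scanned on another day. Genes of female liver had a mean level of 3.37 to 4.10 in the 3 hemizygous mice, of -0.41 and 3.94 in the 2 young wild-type mice and of -1.65, -0.98 and 3.78 in the 3 young knockout mice, so that the groups were not matched in these genes.

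Of the 34 members, 31 had a value on all 25 arrays. Pnpla3, a lipid droplet acyltransferase and lipase, and Acacb, the mitochondrial acetyl-CoA carboxylase, were well above background on 21 arrays each, and the other members wherever they had a value. Sc5d lacked a value on 3 arrays, and Dgat2 and Elovl5 on 1 each, where every spot was marked an outlier, and their comparisons use the remaining arrays.

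The sterol genes differed between mice of the same group as a block. Knockout mouse 64 had the highest level of the 3 young knockout mice for 19 of 19 sterol genes. It was also the highest for 11 of 15 fatty acid genes, and the share over all features was not computed. Non-tumor liver of mouse 1347 was the lowest of its group for 17 of 19, hemizygous mouse 27 the highest for 16 of 19 and wild-type mouse 31 the higher of its pair for 16 of 19. The mean level of the sterol arm was 3.32, 3.64 and 4.96 in the 3 young knockout mice, a span wider than that of any other group, and 3.86 to 4.27 in young wild-type liver. After the group means were removed, 168 of 171 pairs of sterol genes correlated above 0 over the 25 arrays, with a median r of 0.59, against a median r of 0.42 in the fatty acid arm and 0.31 between the arms. These values describe arrays that share slides and, for tumor pairs, animals, and have no p. No such r was computed over all features, so a shift common to many genes of an array is not set apart. Cyp51, lanosterol demethylase, followed its arm most closely, with a median r of 0.79, followed by Fdft1, squalene synthase, with 0.75. Srebf2 followed it least, with 0.21.

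**Figure D1:**
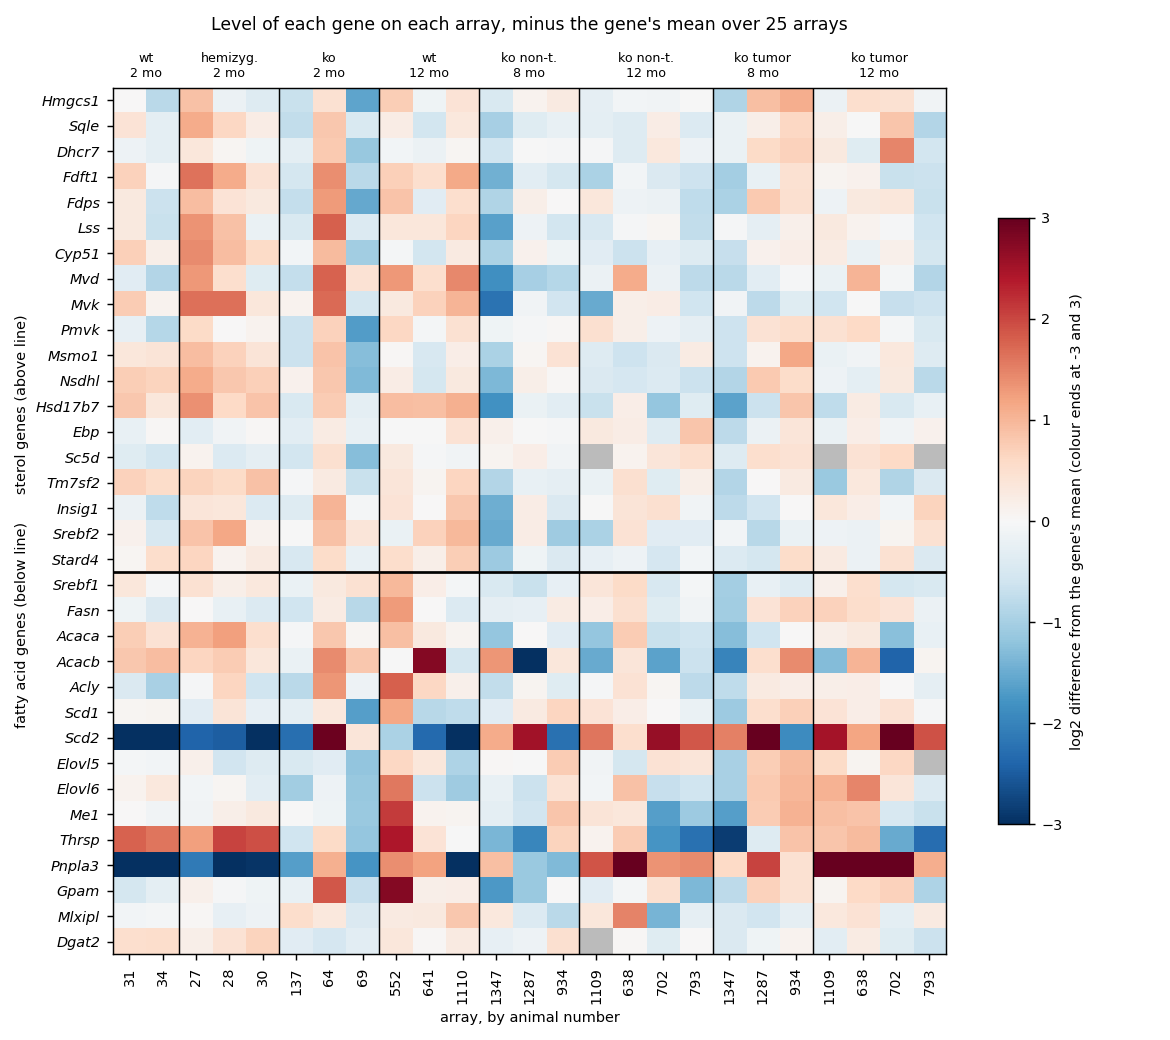
Level of each of the 34 members (rows, sterol arm above, fatty acid arm below) on each of the 25 arrays (columns, by group and animal number), as the log2 difference from the gene's mean over the arrays. The colour scale ends at -3 and 3 and grey marks a missing value. Knockout mouse 64 at 2 months stands out as a column of high sterol genes, 19 of 19 above the other mice of its group. It was also the highest for 11 of 15 fatty acid genes.

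Within the fatty acid arm Fasn, the fatty acid synthase, followed the other members most closely, with a median r of 0.70. Scd2, a stearoyl-CoA desaturase best known from brain, did not follow its arm, with a median r of -0.05. Scd2 also had the widest spread within groups, an SD of 1.68 on the log2 scale, followed by Acacb with 1.44, Pnpla3 with 1.39 and Thrsp, a lipogenic regulator of hepatocytes, with 1.34. Dgat2, the main triglyceride-forming acyltransferase of liver, was steady, with an SD of 0.27. The median SD was 0.57 over sterol genes, 0.67 over fatty acid genes and 0.65 over all features.

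The first comparison asked what the loss of Mcl-1 did in young liver. Of 27016 genes and unnamed probes, 7 (0.0259%) passed an adjusted p of 0.05 in limma between knockout and wild-type liver at 2 months, and 0 of 34 members did. At an unadjusted p under 0.05, 2 members were higher and 3 lower, against 4.54% and 4.34% of all features. Groups did not overlap for 2 members that were higher and 5 that were lower, against 17.5% and 19.3% of all features, neither count above the background share. The sterol arm had 5 of 19 genes above 0, against 49% of all features, and a median difference of -0.14, against -0.01. The fatty acid arm had 6 of 15 above 0 and a median of -0.18. Without knockout mouse 64 the sterol median was -0.65, and without knockout mouse 69 it was 0.29.

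Dgat2 had the smallest p of the fatty acid arm. Its level was 8.28 and 8.29 in young wild-type liver, 7.94, 8.21 and 8.43 in hemizygous liver, and 7.43, 7.27 and 7.45 in knockout liver. The 3 knockout mice were below every mouse of the other genotypes. The difference from wild type was -0.90 (SE 0.27), a 1.87-fold lower signal, with an adjusted p of 0.36 in limma, and the other probes of Dgat2 gave -0.93 and -0.75. With the slide as a block the difference was -0.50, read from knockout mouse 137 alone. That mouse shared its slide with hemizygous and not wild-type mice, so slide-block values against wild type pass through hemizygous mice. Knockout mice 64 and 69 shared no slide with young control mice.

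Thrsp was at 8.03 and 7.85 in young wild-type liver and at 7.50, 8.29 and 8.19 in hemizygous liver. In knockout liver it was at 5.65, 6.82 and 5.10, and again no knockout mouse reached the others. The difference from wild type was -2.09 (SE 0.96, adjusted p 0.56 in limma). Elovl6 and Elovl5, which lengthen saturated and polyunsaturated fatty acids, were also lower in each knockout mouse than in each wild-type mouse, by -0.99 (SE 0.66) and -0.59 (SE 0.46), with adjusted p of 0.72 and 0.78.

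Scd2 and Pnpla3 were the 2 members that lay higher in every knockout than in every wild-type mouse. Scd2 was at -0.74 and -0.25 in wild-type liver, at 0.33, 0.25 and -0.36 in hemizygous liver and at 0.47, 5.68 and 3.10 in knockout liver. The knockout values were far apart, with mouse 137 next to the controls and mouse 64 far above them. The difference from wild type was 3.58 (SE 1.36, adjusted p 0.47 in limma), 2.28 without mouse 64 and 4.89 without mouse 137. With the slide as a block, which reads the knockout from mouse 137 alone, it was 0.32. Scd1, the main hepatic desaturase, was at 8.05 and 8.09 in wild-type and at 7.70, 8.31 and 6.34 in knockout liver, and these groups overlapped.

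Pnpla3 was not well above background in young wild-type liver, with measured levels of -6.57 and -6.92, and was so in the 3 knockout mice, at -3.98, -1.25 and -4.09. On the processed signal the knockout mean was 5.11-fold above the lowest signal that counts as well above background, which stood in for wild-type liver. Under another background correction this fold is no lower bound. The fitted difference had an adjusted p of 0.42 in limma. It was 3.64 on the processed signal and 0.76 after normexp background correction and quantile normalisation, and is no bound.

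Tm7sf2, a sterol C14-reductase, was the sterol gene with the smallest p. It was at 6.76 and 6.62 in wild-type, 6.72, 6.64 and 6.94 in hemizygous and 6.03, 6.33 and 5.40 in knockout liver, the 3 knockout mice lying below the others. The difference from wild type was -0.77 (SE 0.34, adjusted p 0.53 in limma). With the slide as a block it was -0.41, again from knockout mouse 137 alone. Mvd and Nsdhl, the next sterol genes by p, differed by 1.09 (SE 0.69, adjusted p 0.70) and -0.83 (SE 0.53, adjusted p 0.71), in opposite directions. Mvd differed by -1.39 with the slide as a block, from the same mouse.

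Against hemizygous liver the sterol genes were lower in knockout liver, though no member passed the test. In limma 14 of 27019 features (0.0518%) passed an adjusted p of 0.05 and 0 members did, and 1 member was higher and 5 lower at an unadjusted p under 0.05, against 4.04% and 4.3% of all features. The sterol median was -0.78, with 2 of 19 genes above 0, while all features had a median of 0.06 and 55% above 0. It was -0.27 without knockout mouse 69 and -1.24 without mouse 64. Of 9 genes of female liver 2 were above 0, with a median of -4.24, and of 9 of male liver 8, with 1.02. Their part in the sterol genes was not tested. On the slide that held knockout mouse 137 with hemizygous mice 27 and 28, 0 of 19 sterol genes were higher in the knockout mouse and the median was -1.02, with no test.

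Tm7sf2 differed from hemizygous liver by -0.85 (SE 0.30, adjusted p 0.46 in limma). Cyp51 was at 4.12, 3.63 and 3.29 in hemizygous and 2.62, 3.66 and 1.68 in knockout liver, where mouse 64 lay among the hemizygous mice. It differed by -1.03 (SE 0.44, adjusted p 0.55), and by -0.54 without knockout mouse 69. Msmo1, the sterol C4-methyl oxidase, differed by -1.02 (SE 0.47, adjusted p 0.59), by -0.56 without mouse 69 and by -1.62 without mouse 64. In the fatty acid arm, with 6 of 15 genes above 0 and a median of -0.19, Dgat2 differed by -0.81 (SE 0.24, adjusted p 0.38), Thrsp by -2.13 (SE 0.86, adjusted p 0.52) and Scd2 by 3.01 (SE 1.21, adjusted p 0.52). The 2 members that lay higher without overlap and the 3 that lay lower compare with 16.1% and 9.57% of all features.

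The loss of 1 allele was read from hemizygous against wild-type liver. In limma 0 of 27015 features (0%) passed an adjusted p of 0.05, and 1.24% had an unadjusted p under 0.05, among them 0 members. The sterol genes were above 0 in 18 of 19 cases, against 44.3% of all features, with a median of 0.53, against -0.05, while the fatty acid genes had 9 of 15 above 0 and a median of 0.08. The median was 0.27 without wild-type mouse 34 and 0.86 without mouse 31, and on the slide shared by both wild-type mice and hemizygous mouse 30 it was 0.14 over 16 of 19 genes above 0. Srebf2 differed by 0.88 (SE 0.54), Mvd by 1.09 (SE 0.69) and Pmvk, phosphomevalonate kinase, by 0.78 (SE 0.50), each with an adjusted p of 1.0. Groups did not overlap for 5 members that were higher and 2 that were lower, against 8.55% and 9.94% of all features. Some lists of other cells also lay higher in hemizygous liver. Above 0 were 9 of 9 stellate, 7 of 7 endothelial and 7 of 7 cholangiocyte genes, at medians of 0.39, 0.31 and 0.27. Of macrophage genes 11 of 13 were, with a median of 0.21. Other lists went the other way, with 1 of 7 T and NK cell genes above 0 (median -0.19). For neutrophil genes this was 3 of 7 (-0.13), and for hepatocyte markers 0 of 10 (-0.15). Genes of female liver were above 0 in 9 of 9 cases, with a median of 2.02, and those of male liver in 0 of 9, with -1.87. The part of these lists in the sterol genes was not tested. The comparisons of knockout liver with wild-type and with hemizygous liver share the knockout mice, and those with the same controls share these too.

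Several other lists moved with the young knockout groups. The mean level of 13 macrophage genes was 1.33 to 1.76 in knockout liver, against -0.39 and -0.26 in wild-type and -0.12 to 0.03 in hemizygous liver, and 13 of 13 were above 0 against wild type. That of 9 stellate cell genes was 2.38 to 2.60, against 1.11 to 1.18 in wild-type and 1.42 to 1.78 in hemizygous liver. That of 7 neutrophil genes was -3.28 to -1.24, against -5.07 to -4.76 and -5.19 to -4.42. Of the 7, 5 to 7 were well above background in knockout liver, 2 to 3 in wild-type and 3 to 4 in hemizygous liver. The control means thus lie partly near background, which leaves the size of this gap uncertain. S100a8 and S100a9 rose against hemizygous liver, by 4.99 and 4.22 with an adjusted p of 0.025 each in limma. Of the 12 clock genes 4 were above 0 and 8 below against wild type, from -5.28 to 4.32, with a median difference of -1.74. In the fasting response 8 of 8 measured genes lay lower, with a median of -0.76. Their part in the differences of the members was not tested.

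**Figure D2:**
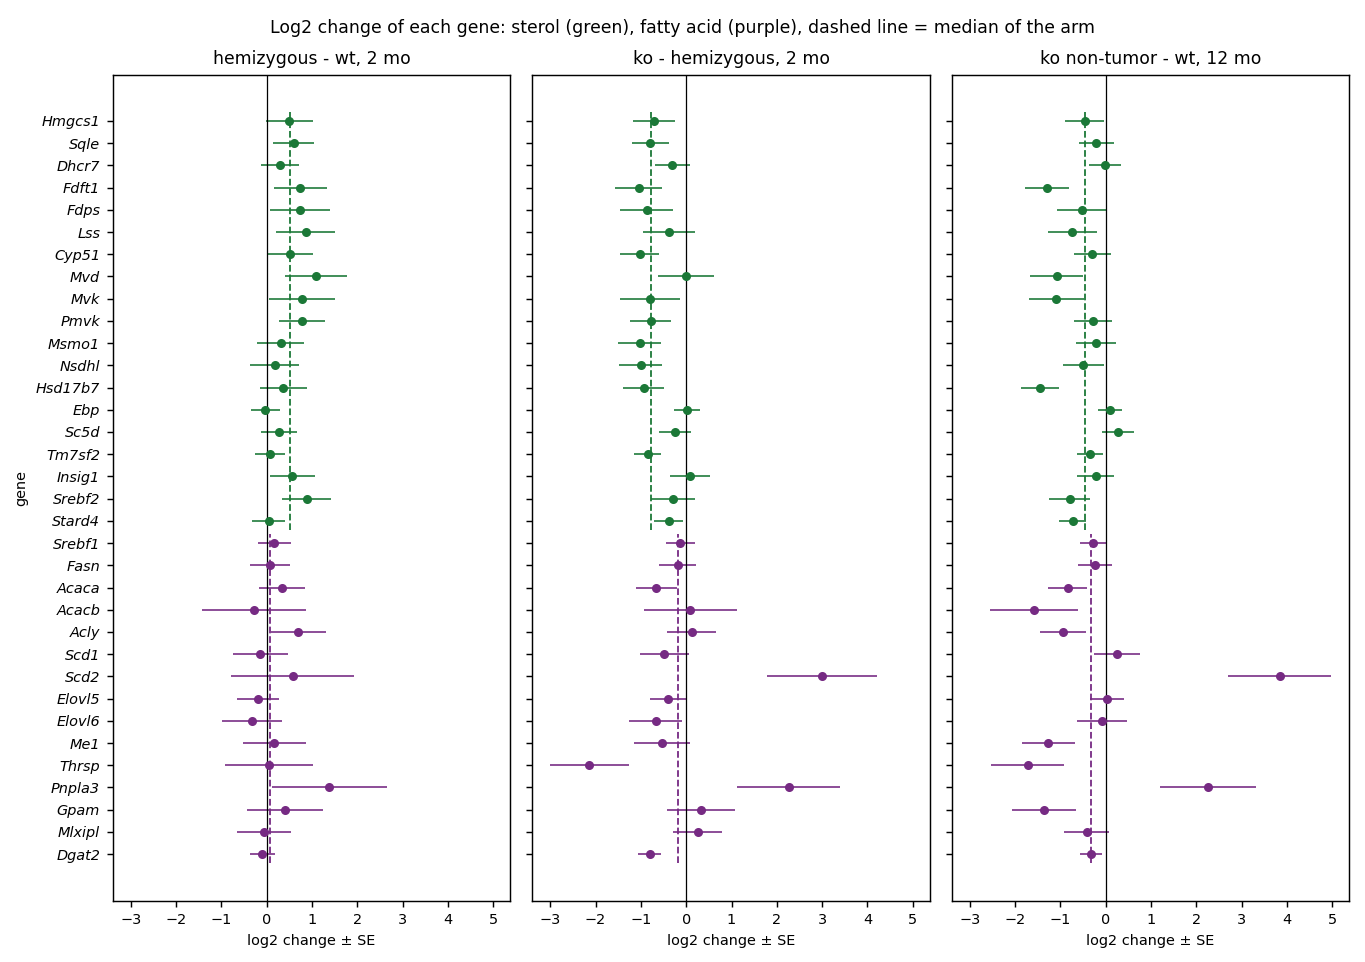
Log2 difference of each member with its SE in 3 comparisons, hemizygous against wild type at 2 months, knockout against hemizygous at 2 months and non-tumor knockout against wild type at 12 months. The dashed line is the median of the arm. The sterol medians lie at 0.53, -0.78 and -0.46.

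At 12 months non-tumor knockout liver was compared with wild-type liver of that age, and several sterol genes lay lower in it, none past the adjusted threshold. In limma 5 of 27024 features (0.0185%) passed an adjusted p of 0.05, and 0 members did. At an unadjusted p under 0.05, 1 member was higher and 4 lower, against 8.62% and 8.64% of all features. Groups did not overlap for 1 member that was higher and for 5 that were lower, against 5.44% and 4.78% of all features, and the 5 were sterol genes. The sterol median was -0.46, with 2 of 19 genes above 0, while all features had a median of -0.09 and 45% above 0. It was -0.27 without wild-type mouse 552 and -0.69 without wild-type mouse 641. With the scan day as a block, which leaves wild-type mouse 641 as the reference, the sterol median was 0.03. That mouse was the lowest of its group for 14 of 19 sterol genes. Hepatocyte markers also lay lower, with mean levels of 6.99 to 7.41 in non-tumor knockout liver and 7.46 to 8.00 in wild-type liver. In tumors of 12 months they were at 7.13 to 7.37. Of 10 hepatocyte genes 8 were below 0 in non-tumor liver and 2 above, with a median of -0.35. Their part in the sterol genes was not tested.

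Hsd17b7, a sterol C3-ketoreductase, was at 3.93, 3.91 and 4.07 in wild-type liver and at 2.34, 3.22, 1.86 and 2.66 in non-tumor knockout liver. The wild-type mice were close together and above each knockout mouse. The difference was -1.45 (SE 0.43, adjusted p 0.13 in limma), and the second probe of the gene gave -0.62. Without mouse 638, 2856 of 26887 features (10.6%) passed in place of 5, and with them 3 of 34 members, near that share. They were Hsd17b7 (-1.68, adjusted p 0.029), Acaca, the cytosolic acetyl-CoA carboxylase (-1.23, adjusted p 0.045), and Scd2 (4.22, adjusted p 0.045), of which Acaca lies outside the rule for naming members in full.

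Fdft1 was at 4.40, 4.17 and 4.83 in wild-type and at 2.73, 3.60, 3.26 and 3.07 in non-tumor knockout liver, again without overlap. It differed by -1.30 (SE 0.49, adjusted p 0.19), and by -0.88 at its second probe. Stard4, which carries cholesterol between membranes, was at 3.41, 3.06 and 3.63 in wild-type and at 2.63, 2.73, 2.39 and 2.82 in knockout liver and differed by -0.72 (SE 0.30, adjusted p 0.23), and its other probes gave -0.58 and -0.25. Mvk, mevalonate kinase, and Lss, lanosterol synthase, completed the 5 and differed by -1.09 (SE 0.61, adjusted p 0.39) and -0.74 (SE 0.54, adjusted p 0.53).

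Scd2 was the member that lay higher in each of the 4 knockout mice than in any of the 3 wild-type mice at 12 months. It was at 1.80, 0.41 and -0.60 in wild-type liver and at 4.34, 3.23, 5.35 and 4.59 in non-tumor knockout liver. The difference was 3.84 (SE 1.14), a 14.3-fold higher signal, with an adjusted p of 0.13 in limma. Scd1 was at 9.16, 7.17 and 7.23 in wild-type and at 8.41, 8.20, 8.01 and 7.79 in knockout liver, where the groups overlapped.

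The fatty acid arm as a whole had 4 of 15 genes above 0 at 12 months, Scd2 among them, and a median of -0.32, which was -0.11 without mouse 702 and -0.59 without wild-type mouse 1110. Me1, malic enzyme, which supplies NADPH, differed by -1.27 (SE 0.58, adjusted p 0.28) and Thrsp by -1.72 (SE 0.81, adjusted p 0.29). Without wild-type mouse 552 they differed by -0.60 and -0.98. That mouse had the highest level of its group for 13 of 15 fatty acid genes. Pnpla3 differed by 2.26 (SE 1.06, adjusted p 0.29). In wild-type mouse 1110 it was not well above background, and without that mouse it differed by 0.73 (SE 0.88, adjusted p 0.72). Dgat2 differed by -0.32, and its other probes gave -0.96 and -1.53, so that its probes disagreed on the size. Dgat2 lacked a value in non-tumor liver of mouse 1109.

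**Figure D3:**
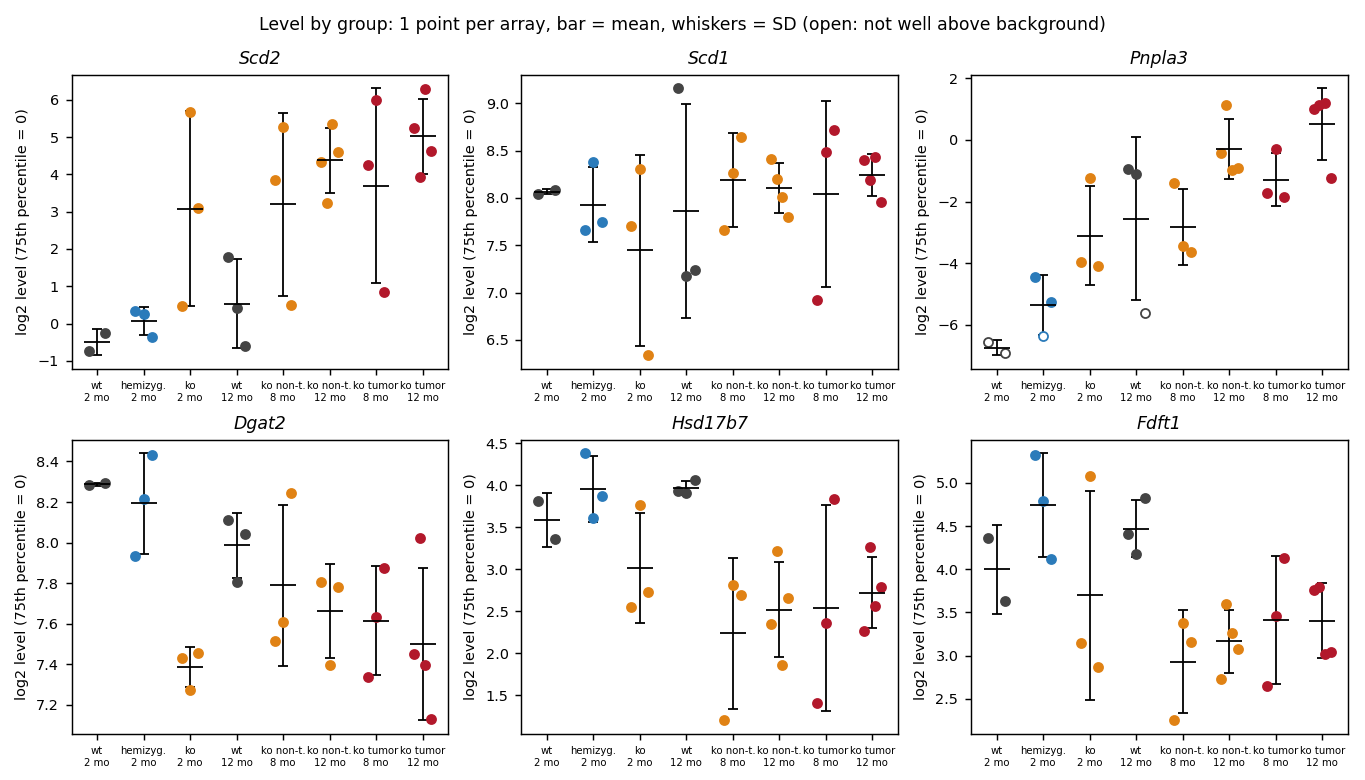
Levels of Scd2, Scd1, Pnpla3, Dgat2, Hsd17b7 and Fdft1 (log2 of the signal relative to the 75th percentile of the array) in the 8 groups. Each point is 1 array, the bar is the mean, whiskers are the SD and open points were not well above background. Scd2 lies above 3 in all 8 samples of 12-month knockout mice and below 2 in the 8 wild-type and hemizygous samples.

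Marker lists of other cells were read beside Scd2. The mean level of the macrophage genes was 1.51 to 2.29 in non-tumor knockout liver at 12 months and -0.99, 0.68 and 1.15 in wild-type liver, with 13 of 13 genes above 0. That of 9 stellate cell genes was 1.94 to 2.38 against 0.74 to 2.31. That of 7 T and NK cell genes was -1.88 to -1.21 against -3.99 to -2.34, with 7 of 7 above 0. Among the 8-month knockout mice, mouse 934 had the lowest macrophage mean in non-tumor liver, 0.29, and the lowest Scd2, 0.49, where the other mice had 3.85 and 5.26. Among the young knockout mice, mouse 137 had a macrophage mean of 1.33 and Scd2 at 0.47. The others had macrophage means of 1.61 and 1.76 and Scd2 at 5.68 and 3.10. Young wild-type and hemizygous mice had macrophage means of -0.39 to 0.03 and Scd2 at -0.74 to 0.33. Mouse 137 thus lay far above them in macrophage genes and next to them in Scd2. The part of these cells in the level of Scd2 was not tested.

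Genes of the same pathways outside the list were read beside it at 12 months, and 0 of them passed an adjusted p of 0.05 in limma. Of 19 other sterol pathway genes 12 were above 0, with a median of 0.08, and the bile acid enzyme Cyp27a1 differed by -1.80 (SE 0.52, adjusted p 0.13). Of 17 genes of sterol uptake, export and esterification 7 were above 0, with a median of -0.25, and 3 were higher and 6 lower at an unadjusted p under 0.05, against 8.62% and 8.64% of all features. They included Abcg1, a cholesterol exporter of macrophages, at 1.67, and Soat2, the esterifying enzyme of hepatocytes, at -1.47 (SE 0.31, adjusted p 0.10). Of 24 other fatty acid genes 5 were above 0, with a median of -0.61. Of the 24, 10 were lower and 1 higher at an unadjusted p under 0.05, against 8.64% and 8.62% of all features, among the lower ones Slc25a1, the citrate carrier, at -1.35, Dgat1 at -0.78 and Fads1, a desaturase of polyunsaturated fatty acids, at -0.93. Of 15 lipid droplet genes 3 were above 0, with a median of -0.83. Cideb, which loads lipid onto lipoproteins, differed by -1.51 (SE 0.39, adjusted p 0.11).

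Tumors of 12 months were set against wild-type liver of the same age, in a fit over all 25 arrays. In limma 318 of 28339 features (1.12%) passed an adjusted p of 0.05, 0.674% higher and 0.448% lower. Scd2 was the member that passed. At an unadjusted p under 0.05, 2 members were higher and 4 lower, against 9.62% and 8.81% of all features. Scd2 was at 5.24, 3.92, 6.29 and 4.64 in the tumors, above the 3 wild-type mice, and rose by 4.49 (SE 1.09), 22.4-fold, with an adjusted p of 0.0497. Over the alternatives this p ran from 0.020 to 0.27, the highest without wild-type mouse 1110, and it passed in 11 of 34 of them.

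Pnpla3 differed by 3.08 (SE 1.03, adjusted p 0.11), and by 1.55 without wild-type mouse 1110, where it was not well above background. Tm7sf2 differed by -0.89 (SE 0.32, adjusted p 0.14). Hsd17b7, at 2.26, 3.26, 2.56 and 2.79 in the tumors, was below each wild-type mouse and differed by -1.25 (SE 0.46, adjusted p 0.15). Fdft1, at 3.76, 3.80, 3.02 and 3.04, was also below them and differed by -1.06 (SE 0.47, adjusted p 0.23). Groups did not overlap for 2 members that were higher, Scd2 and Sc5d, and for 4 that were lower, Hsd17b7, Fdft1, Mvk and Lss, against 8.74% and 7.44% of all features. Sc5d lacked a value in the tumor samples of mice 1109 and 793. The sterol arm had 4 of 19 genes above 0 and a median of -0.24, the fatty acid arm 6 of 15 and -0.45, and all features had 48.5% above 0 and a median of -0.03. This comparison and that of non-tumor liver share the wild-type mice. Beside Scd2, Abcg1 (1.84, SE 0.42, adjusted p 0.046) and the macrophage gene Lyz2 (2.01, adjusted p 0.047) rose and Cideb fell (-1.72, SE 0.35, adjusted p 0.044), and 13 of 13 macrophage genes lay above 0.

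Tumor and non-tumor liver of the same mouse were compared in 7 mice, with the mouse as a block. In limma 0 of 24581 features (0%) passed an adjusted p of 0.05. At an unadjusted p under 0.05, 6 members were higher in tumors and 0 lower, against 2.34% and 1.7% of all features. The members leaned to the tumor side, with 17 of 19 sterol genes above 0 at a median of 0.27 and 13 of 15 fatty acid genes at 0.22, against 46.5% of all features at -0.02. Without the block the medians were 0.27 and 0.20, and with Xist, a gene of female cells, as a covariate the fatty acid median was 0.03.

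Scd2 was higher in the tumor in 7 of 7 mice. Mouse by mouse the non-tumor and tumor levels were 3.85 and 4.25 (1347), 5.26 and 6.0 (1287), 0.49 and 0.85 (934), 4.34 and 5.24 (1109), 3.23 and 3.92 (638), 5.35 and 6.29 (702), and 4.59 and 4.64 (793). The differences between mice exceeded those within them, and the difference within a mouse was 0.58 (SE 0.15, adjusted p 1.0 in limma). Gpam, the first acyltransferase of glycerolipid synthesis, was the other member higher in 7 of 7 mice, by 0.20 to 1.81, with a mean of 0.70 (SE 0.20, adjusted p 1.0). A like sign in all 7 mice occurred in 0.618% of all features for higher and 0.85% for lower values.

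Pnpla3 (1.13, SE 0.44), Elovl6 (0.60, SE 0.25), Sqle, squalene epoxidase (0.45, SE 0.18), and Nsdhl, a sterol C4-decarboxylase (0.37, SE 0.15), also had an unadjusted p under 0.05. Not every mouse followed. The tumor of mouse 934 was higher for 19 of 19 sterol genes, with a median difference of 0.70, while that of mouse 793 was higher for 5 of 18, with a median of -0.12. For fatty acid genes the tumor of mouse 1347 was higher for 2 of 15, with a median of -0.74, and those of mice 1287 and 934 for 13 of 15 each. The tumor of mouse 1347 was hybridised on another slide and scan day than its non-tumor sample, and without this mouse the fatty acid median was 0.48. Macrophage genes did not move with the tumors, with 6 of 13 above 0 and a median of -0.03.

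**Figure D4:**
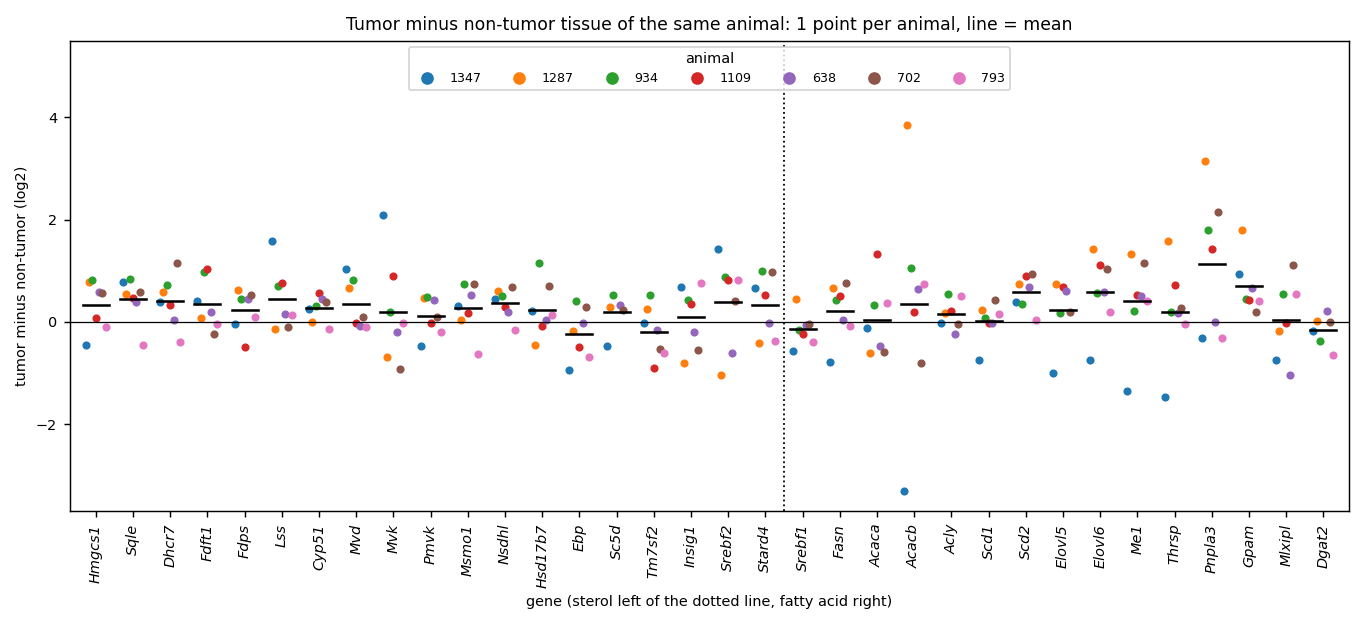
Tumor minus non-tumor log2 difference of each member in each of the 7 mice, 1 point per mouse, with a line at the mean. Scd2 and Gpam have all points above 0, while most other members have mice on both sides.

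The tumor difference was also compared between 12 and 8 months, and 0 features (0%) passed an adjusted p of 0.05 in limma. Mvd differed between the ages by -0.87 (SE 0.27, adjusted p 0.74) and Tm7sf2 by -0.81 (SE 0.31, adjusted p 0.79), the 2 members that were lower at an unadjusted p under 0.05, where 0 were higher, against 5.41% of all features higher and 0.651% lower. Tumors of 12 months against those of 8 months gave 0 features (0%), and at an unadjusted p under 0.05 1.59% of features were higher and 1.01% lower, 0 members among them. The medians were 0.00 over sterol and 0.28 over fatty acid genes, against 0.10 over all features. The fatty acid median was -0.20 without the tumor of mouse 1347 and 0.55 without that of mouse 1287.

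Age was read in wild-type liver, where 0.0407% of features passed between 12 and 2 months and 0 members did. At an unadjusted p under 0.05, 3 members were higher and 0 lower, against 4.86% and 5.76% of all features. Groups did not overlap for 11 members that were higher, against 15.5% of features, and for 3 that were lower, against 12.4%. Pnpla3 was at -0.94, -1.12 and -5.62 at 12 months, with 2 of 3 older mice well above background and an adjusted p of 0.25 in limma. On the processed signal the older mean was 7.47-fold above the lowest signal that counts as well above background, which stood in for young liver. Over the alternatives its log2 difference was as low as 1.15, so that this fold is no lower bound. Acly differed by 1.56 (SE 0.61, adjusted p 0.39) and Mvd by 1.68 (SE 0.69, adjusted p 0.41). The sterol median was 0.38, with 14 of 19 genes above 0 against 48.5% of all features. With the slide as a block it was -1.08. In that fit the older group was mouse 641 alone, whose slide held knockout mice 64 and 69 and no young wild-type mouse. The value thus passes through knockout and hemizygous mice and is no direct contrast of wild-type mice.

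Age in knockout liver was read in non-tumor tissue, and no member passed the threshold in limma. From 2 to 8 months, where 0% of features passed, 1 member was higher and 2 were lower at an unadjusted p under 0.05, against 8.54% and 7.54% of all features. They were Elovl5 (0.92, SE 0.41, adjusted p 0.29), Mvd (-1.71, SE 0.62, adjusted p 0.21) and Srebf2 (-1.20, SE 0.48, adjusted p 0.25). From 2 to 12 months, where 0.0074% passed, Pnpla3 was the 1 member at an unadjusted p under 0.05, against 7.11% of features higher and 10.3% lower, and differed by 2.81 (SE 1.06, adjusted p 0.23). From 8 to 12 months, where 0% passed, it was again the 1 member, against 1.13% higher and 4.12% lower, and differed by 2.54 (SE 1.06, adjusted p 0.91).

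The genotype difference at 12 months was itself set against that at 2 months, where 0% of features passed in limma. At an unadjusted p under 0.05, 2 members were lower and 0 higher, against 4.83% and 4.77% of all features. Mvd differed by -2.17 (SE 0.90, adjusted p 0.49) and Acly by -1.76 (SE 0.79, adjusted p 0.50). The medians of this difference were -0.27 over sterol and -0.31 over fatty acid genes, against -0.06 over all features.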

How the data were processed

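Each sample was hybridised to an Agilent one-colour array (Cy3). The deposited scanner files hold spot intensity values, and the background-corrected processed signal was used here. Per the file headers they come from Agilent Feature Extraction. The submitters' processing notes name limma without a version. The authors' deposited processed values, an alternative only, are on a log2 scale, and their normalisation is not given in the sources used here.

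Signals were taken as log2 and the 75th percentile of each array was subtracted. Spots marked as outliers were left out, spots of a probe were averaged, and the probe with the highest mean signal stood for its gene. Of 41174 probes 59.2% could be named through their accession. Features well above background on at least 2 of 18 arrays without tumor, 3 of 14 paired arrays or 2 of all 25 were tested with limma 3.58.1 (R 4.3.3, data.table version 1.17.8), two-sided, with Benjamini-Hochberg adjustment over all features and a threshold of 0.05. Comparisons without tumor used a model of 6 groups (12 residual degrees of freedom). Tumor pairs had the mouse as a fixed block (6), and tumors against wild type used all arrays with the mouse as a random block (17, consensus correlation 0.42). The labels name separate animals, so that p-values measure the spread between mice.

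Members and lists were chosen with earlier results of these data known. All members may be named. Those given in full passed the threshold, did not overlap between groups with a log2 difference of at least 1, or were among the 3 smallest p of their arm. Of other lists up to 4 genes with the smallest p may be named. The pairing rests on the animal number in the labels, and in 5 of 7 mice the tumor sample was most correlated with non-tumor liver from the same animal. The alternatives were quantile normalisation, normexp (offset 50, on the median signal, as the files give no mean signal) with quantile normalisation, the deposited table, no filter or a stricter one, the mean of all probes of a gene, a variance trend with robust weights, only the groups compared, Xist as a covariate, slide and scan day as blocks, the slide as a random block (chosen after seeing the data), other handling of the mouse, and leaving out each sample. The test script was tested on simulated data.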

Additional observations from a re-analysis of the deposited data

Results flagged for a closer look

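In 98 sets of 4 to 10 values (a member in a group of 4 mice, or the 7 tumor differences of a member), 6 held a value whose gap to the nearest other value exceeded Dixon's critical share of the range, and chance marks about 1 in 20 sets. Among the tumor minus non-tumor differences, Sqle was at -0.457 in mouse 793, against 0.385 to 0.848 in the other mice. In mouse 1347, whose tumor sample was hybridised on another slide and scan day, Scd1 was at -0.741 (others -0.019 to 0.424), Elovl5 at -1.01 (others 0.175 to 0.743) and Me1 at -1.35 (others 0.219 to 1.32). In tumors of 12 months, Mvk was at 0.966 in mouse 638, against 0.302 to 0.377 in the others, and Pnpla3 at -1.23 in mouse 793, against 0.999 to 1.19. The causes were not tested.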

How the results depend on the processing

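Counts of members past the threshold stayed within 1.5 times in 343 of 369 alternative fits, and arm medians moved by less than their spread in 728 of 738. Of 2322 values of named members 2283 kept their direction and their side of the threshold. The count was 0 in every comparison but tumors of 12 months against wild type, so that these totals say little about calls. In that comparison Scd2 passed in 11 of 34 alternatives. With the mouse left out as a block (no replicate block), the tumor medians were 0.27 for sterol and 0.20 for fatty acid genes and no call changed.

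For tumors of 12 months against wild type, 2 members passed with normexp and with the deposited table, where Pnpla3 joined Scd2, 0 passed without a filter, with the mean of probes and with the scan day as a block, and 0 to 1 when a sample was left out. In the 12-month comparison of knockout liver outside tumors with wild type this was 0 to 3, the 3 without mouse 638, and the sterol median was 0.034 with the scan day as a block. With the slide as a block the sterol median was -0.90 for knockout against wild type at 2 months, 0.14 for hemizygous against wild type and -1.08 for age in wild type. In turn, the first group was then read from a single mouse, knockout 137, hemizygous 30 and 12-month wild type 641. Knockout 137 shared its slide with hemizygous mice, and wild type 641 with knockout mice 64 and 69. The first and last of these medians therefore pass through mice of other genotypes. The fatty acid median of hemizygous against wild type was 0.25 with quantile normalisation, 0.19 with normexp and 0.26 with the deposited table, and ran from -0.039 to 0.22 when a sample was left out. The sterol median of the genotype difference between ages ran from -0.75 to 0.28, the latter without knockout mouse 64.

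With the slide as a block the first group was again a single mouse, as given above. In these fits signs turned for Mvd (-1.39, knockout against wild type) and Acaca (-0.083, hemizygous against wild type). For age in wild type, where the fit passes through knockout and hemizygous mice, signs turned for Acly (-0.97), Mvd (-1.99), Insig1 (-1.14) and Gpam (-0.44). They also turned for Me1 (-0.12, tumor difference by age, with slide or scan day as a block and without mouse 1347; -0.12 to 1.22 when a mouse was left out), Scd2 (12 against 8 months, -0.17 without mouse 934 to 2.21 without mouse 1287), Sc5d (-0.057, tumors by age, deposited table) and Dgat2 (-0.50, genotype by age, mean of probes). The cause was not tested. The slide as a block could not be fitted for knockout against wild type at 12 months, age in knockout liver or genotype by age. Pnpla3 lies near the background in young liver, which limits its fold.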
